A study of Arabidopsis thaliana with 4 samples.

Results

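DnaJ-domain proteins, also called J proteins or Hsp40s, are the co-chaperones of Hsp70, the ATP-driven chaperone that binds unfolded stretches of other proteins. The J domain carries a conserved His-Pro-Asp motif that makes Hsp70 hydrolyse ATP and close on its client, and a nucleotide exchange factor then opens it again. J proteins therefore decide which client, membrane or compartment an Hsp70 works on, and some of them are made in larger amounts when proteins unfold, as in heat. A list of 60 Arabidopsis loci for such proteins was followed here. A locus counted as measured where a probe set was annotated to that gene alone, and 37 of the 60 were, each by 1 probe set, among 22746 tested probe sets.

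The seedlings of all 4 arrays were max3 mutants in the Col strain, 14 days old and harvested whole. This mutation removes an enzyme that plants need to make strigolactones, the hormones that restrain shoot branching, so there were no plants with strigolactones of their own. Seedlings of 2 arrays had been given 1 µM GR24, a synthetic strigolactone, for 90 min, and those of the other 2 arrays dimethyl sulfoxide, the solvent, for the same time (mock). Each treatment had a replicate 1 and a replicate 2. The series description gives 2 independent analyses with seedlings of their own, and each replicate number was read here as 1 of them. The comparison of GR24 with mock asks whether the added hormone analogue alters transcript levels. Replicate 2 was also set against replicate 1 within treatments, and in that contrast the seedlings cannot be told apart from array handling that may have followed the same numbering.

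Values are log2 signals of a probe set, and a difference of 1 is a factor of 2. The array medians lay between 7.03 and 7.06 and the medians of the 37 DnaJ probe sets between 7.73 and 7.83. Of the marker lists for the labelled tissue, 2 of 18 green shoot genes and 1 of 9 root genes were measured. RCA, the Rubisco activase gene, had 13.46 and 13.56 with GR24 and 13.43 and 13.55 in mock, and the light-harvesting gene LHCB4.1 lay between 13.02 and 13.37 on all arrays. The root hair expansin gene EXPA7 lay between 4.79 and 5.58. The level of MAX3 itself is not analysed here. In whole seedlings, fewer cells of a type and less RNA per cell cannot be told apart.

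The measured members cover the family unevenly. All 9 proteins listed as type B were measured. Type B J proteins are built like the yeast protein Sis1, and AT1G44160, listed with them, encodes a protein with their peptide-binding C-terminal part. Also measured were 4 of 4 with a DnaJ-X domain, both with a DUF1977 domain and 4 of 5 with a DUF3444 domain. So was AT2G35795, a relative of the yeast mitochondrial import factor Pam18. Of the proteins of the endoplasmic reticulum, ATERDJ3B and ATERDJ2A were measured and ATERDJ3A was not. The type A genes J2 and J3, the gravitropism gene ARG1 with its relatives ARL1 and ARL2, and the 12 listed plastid J proteins, among them J8, J11 and J20, had no probe set of their own in the tables used. Of the 23 loci not analysed here, 11 have a symbol of their own in the gene table, against 2 of the 37 measured. The results below thus leave out the listed plastid members, and 15 of the 37 measured members were given no class or compartment here.

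With GR24, 3 DnaJ genes stood lowest against mock, AT1G71000, AT3G14200 and AT2G20560, each lower in both replicates by 0.28 to 0.60 on the log2 scale, but none of the 37 passed the test over all probe sets. The other 34 members differed by -0.30 to 0.21. The same 3 genes were the ones that differed most between the replicate numbers, where they were 2.28-fold to 2.65-fold higher in replicate 2 and passed the test. In that contrast 4 other members were lower in replicate 2, AT1G44160, AT2G35795, AT2G33735 and ATERDJ3B.

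The comparison of GR24 with mock was fitted within replicate numbers in limma, with adjusted p-values over all probe sets. It called 0 of the 37 members, while 0.303% of all probe sets were called. The members' adjusted p ran from 0.135 to 0.998 in limma. At an unadjusted p under 0.05 there were 4 members, 10.8% of them, against 7.47% of all probe sets. The median difference over the members was 0.02 and over all probe sets 0.01, and the median size of the difference was 0.09 and 0.08. GR24 was below mock in both replicates for 8 members and above it in both for 12, and the 2 replicates had opposite signs for 17 (45.9%, against 47.8% of all probe sets). A difference below 0 in both replicates was found for 21.6% of the members and 23.3% of all probe sets, and one above 0 in both for 32.4% and 28.7%.

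**Figure D1:**
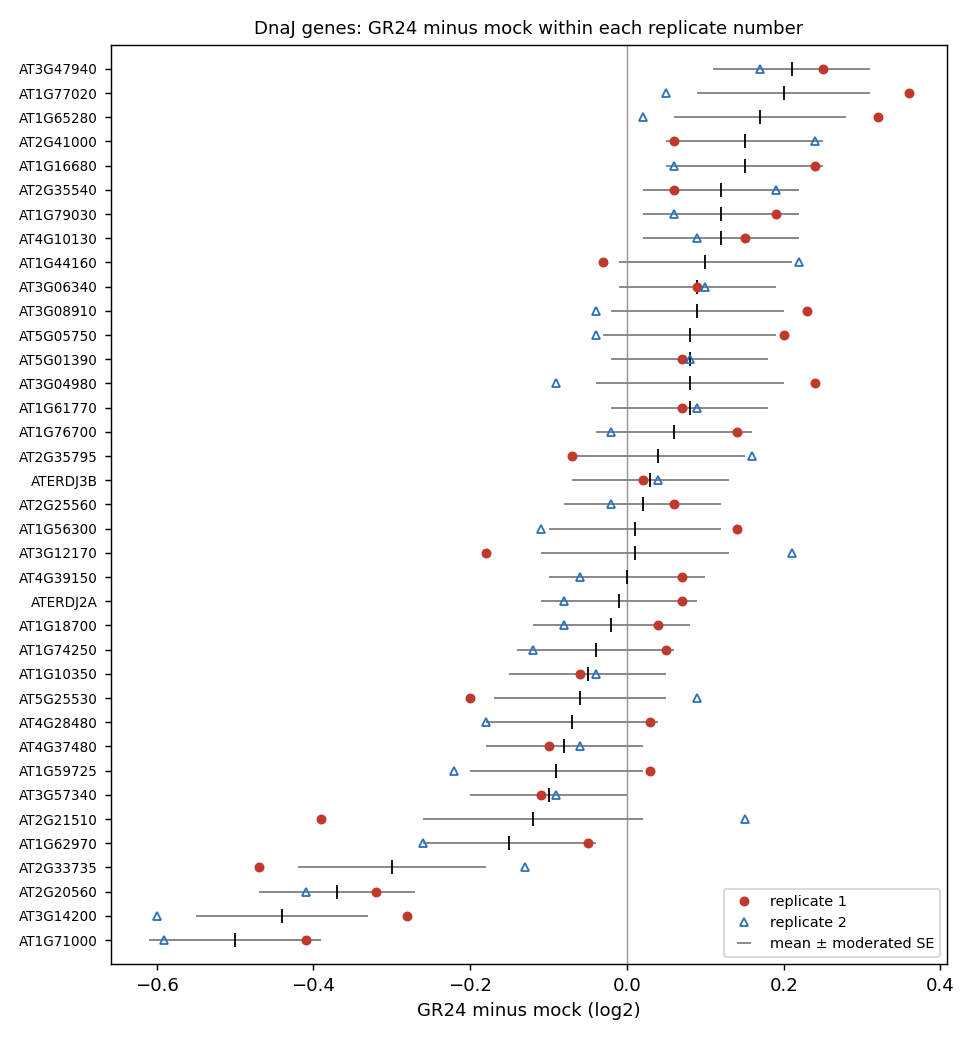
GR24 minus mock on the log2 scale (x axis) for each of the 37 measured DnaJ genes (y axis, ordered by mean). Circles are replicate 1, open triangles replicate 2, the black tick the mean of both and the grey line 1 moderated SE to each side. AT1G71000, AT3G14200 and AT2G20560 lie at the bottom, at -0.28 or lower in both replicates, while most genes lie within 0.2 of 0.

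AT1G71000, which encodes a protein known mainly by its J domain, had log2 signals of 4.88 and 6.14 with GR24 in replicates 1 and 2, against 5.29 and 6.74 in mock. The GR24 array was the lower one within each replicate, but the groups overlapped, because both replicate 2 arrays were above both replicate 1 arrays. The mean difference was -0.50 ± 0.11 (moderated SE, n = 2 pairs), which is 1.42-fold lower with GR24, and it did not pass (limma, adjusted p = 0.135, 95% interval of the difference -0.74 to -0.26 before any adjustment). With limma's own default prior variance, a less strict setting that called 1.24% of all probe sets, the adjusted p was 0.0258 and AT1G71000 was the 1 member called. The signal of AT1G71000 is dim, and with 16 added to the linear values its difference was -0.39.

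AT3G14200 encodes another protein with a J domain. Its signals were 8.05 and 9.29 with GR24, against 8.33 and 9.89 in mock. GR24 was lower by 0.28 in replicate 1 and by 0.60 in replicate 2, and the mean difference was -0.44 ± 0.11 (limma, adjusted p = 0.257, 95% interval -0.70 to -0.18).

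AT2G20560 is a type B J protein gene whose transcript is known to be induced by heat. It had 8.25 and 9.40 with GR24, against 8.58 and 9.81 in mock. The 2 replicates gave close differences, -0.32 and -0.41, with a mean of -0.37 ± 0.10 (limma, adjusted p = 0.301, 95% interval -0.60 to -0.14). These 3 were the only members at least 0.25 lower with GR24 in both replicates, a limit chosen after the values were seen, which 1.64% of all probe sets met. Counted from the lowest difference among 22746 probe sets, AT1G71000 ranked 125, AT3G14200 193 and AT2G20560 328.

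AT2G33735, a J-domain gene with no role assigned here, had 6.16 and 5.84 with GR24, against 6.62 and 5.96 in mock. Its mean difference of -0.30 ± 0.12 (limma, adjusted p = 0.579) rested mostly on replicate 1, with -0.47 there and -0.13 in replicate 2. The largest positive difference was that of AT3G47940, a type B gene, with 7.32 and 7.23 with GR24, against 7.06 and 7.05 in mock. Here the groups did not overlap, and the mean difference was 0.21 ± 0.10 (limma, adjusted p = 0.715). Both GR24 arrays lay above both mock arrays for 6 members and below them for 2, AT1G62970 and AT4G37480, where the shares over all probe sets were 12.9% and 10.2%.

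The remaining members gave little to tell GR24 from mock. Apart from AT2G20560, the 8 other type B genes had differences between -0.09 and 0.21. The DnaJ-X genes AT1G76700, AT1G77020, AT2G21510 and AT4G39150 lay between -0.12 and 0.20. In AT2G21510 the replicates disagreed most in that group, with -0.39 in replicate 1 and 0.15 in replicate 2. The DUF3444 genes AT2G25560, AT2G35540, AT3G04980 and AT3G06340 lay between 0.02 and 0.12, and the membrane-anchored DUF1977 genes AT3G57340 and AT5G05750 at -0.10 and 0.08. ATERDJ3B, an endoplasmic reticulum partner of the Hsp70 BiP, differed by 0.03 (95% interval -0.20 to 0.26), and ATERDJ2A, a relative of the yeast translocation factor Sec63, by -0.01 (95% interval -0.24 to 0.23). For 34 of the 37 members the 95% interval of the difference excluded a 1.5-fold change in either direction (0.58 on the log2 scale), and for AT1G71000, AT3G14200 and AT2G20560 it reached 1.5-fold lower. These intervals rest largely on a variance shared by all probe sets, since each gene has 1 residual degree of freedom of its own.

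Between replicate numbers, 7 of the 37 members passed the test with treatment held constant, 3 higher and 4 lower in replicate 2. That is 18.9% of the members, where 16.7% of all probe sets were called, 8.14% higher and 8.59% lower. The median size of the difference was 0.14 over the members and 0.15 over all probe sets. The share of members called thus lay near the background. With limma's default prior 8 members passed, where 21.8% of all probe sets did, and without treatment in the model 6, where 11.1% did. With 1 array left out, treatment could not be kept in a tested model and a replicate number was down to a lone array. Counts from such fits cannot test the result. The differences then ran from 1.15 to 1.56 for the 3 higher members and from -0.92 to -0.32 for the 4 lower ones. The size of the 3 higher ones did not lie near the background: each was at least 2-fold higher and called, as were 0.558% of all probe sets. AT1G71000 and AT3G14200 head the member list, which was drawn up with earlier results of these data known, the difference of AT1G71000 among them. The count of these 3 is therefore a description only.

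**Figure D2:**
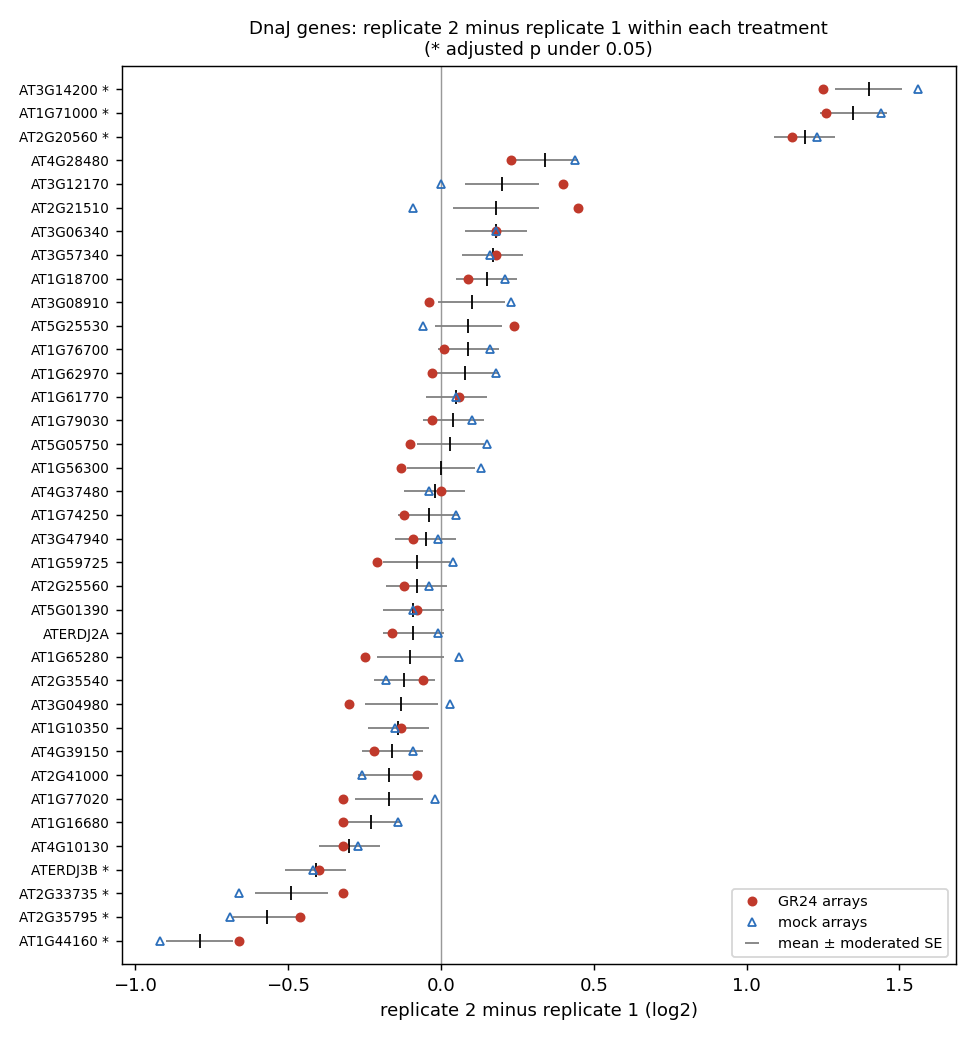
Replicate 2 minus replicate 1 on the log2 scale (x axis) for the 37 DnaJ genes (y axis, ordered by mean). Circles are GR24 arrays, open triangles mock arrays, ticks the mean of both and grey lines 1 moderated SE to each side, and an asterisk marks an adjusted p under 0.05. AT3G14200, AT1G71000 and AT2G20560 stand apart at 1.15 to 1.56 in both treatments, and the 4 genes at the bottom are below -0.3 in both.

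AT3G14200 had 9.29 and 9.89 in replicate 2 (GR24 and mock), against 8.05 and 8.33 in replicate 1. Its difference was 1.40 ± 0.11, or 2.65-fold (limma, adjusted p = 0.000596), and it ranked 25 from the top among all probe sets. AT1G71000 had 6.14 and 6.74 in replicate 2, against 4.88 and 5.29 in replicate 1, a difference of 1.35 ± 0.11 or 2.55-fold (limma, adjusted p = 0.000563). Its signal in replicate 1 was among the dimmer ones, and the difference was 1.04 with 16 added to the linear values. AT2G20560 had 9.40 and 9.81 in replicate 2, against 8.25 and 8.58 in replicate 1, a difference of 1.19 ± 0.10 or 2.28-fold (limma, adjusted p = 0.000633). In all 3 genes the lower of the replicate 2 arrays was well above the higher of the replicate 1 arrays. The difference was also somewhat larger among mock arrays (1.56, 1.44 and 1.23) than among GR24 arrays (1.25, 1.26 and 1.15), which was not tested. In each gene it exceeded the size of the GR24 difference and had the opposite sign. Both contrasts are read from the same 4 arrays.

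Of the 4 members that were lower in replicate 2, AT1G44160 changed most. It encodes a protein with the peptide-binding C-terminal part of type B J proteins, and had 5.95 and 5.73 in replicate 2 (GR24 and mock), against 6.62 and 6.65 in replicate 1. The difference was -0.79 ± 0.11, which is 1.73-fold lower (limma, adjusted p = 0.00335). AT2G35795, the relative of the mitochondrial import factor Pam18, had 8.96 and 8.81 in replicate 2, against 9.42 and 9.49 in replicate 1, a difference of -0.57 ± 0.11 (limma, adjusted p = 0.0106). AT2G33735 had 5.84 and 5.96 in replicate 2, against 6.16 and 6.62 in replicate 1. Its difference of -0.49 ± 0.12 passed (limma, adjusted p = 0.0239), but without treatment in the model it did not (adjusted p = 0.0907). ATERDJ3B, of the endoplasmic reticulum, had 10.79 and 10.75 in replicate 2, against 11.19 and 11.17 in replicate 1, and the difference was -0.41 ± 0.10 (limma, adjusted p = 0.0272). In each of the 4 genes both replicate 2 arrays were below both replicate 1 arrays.

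**Figure D3:**
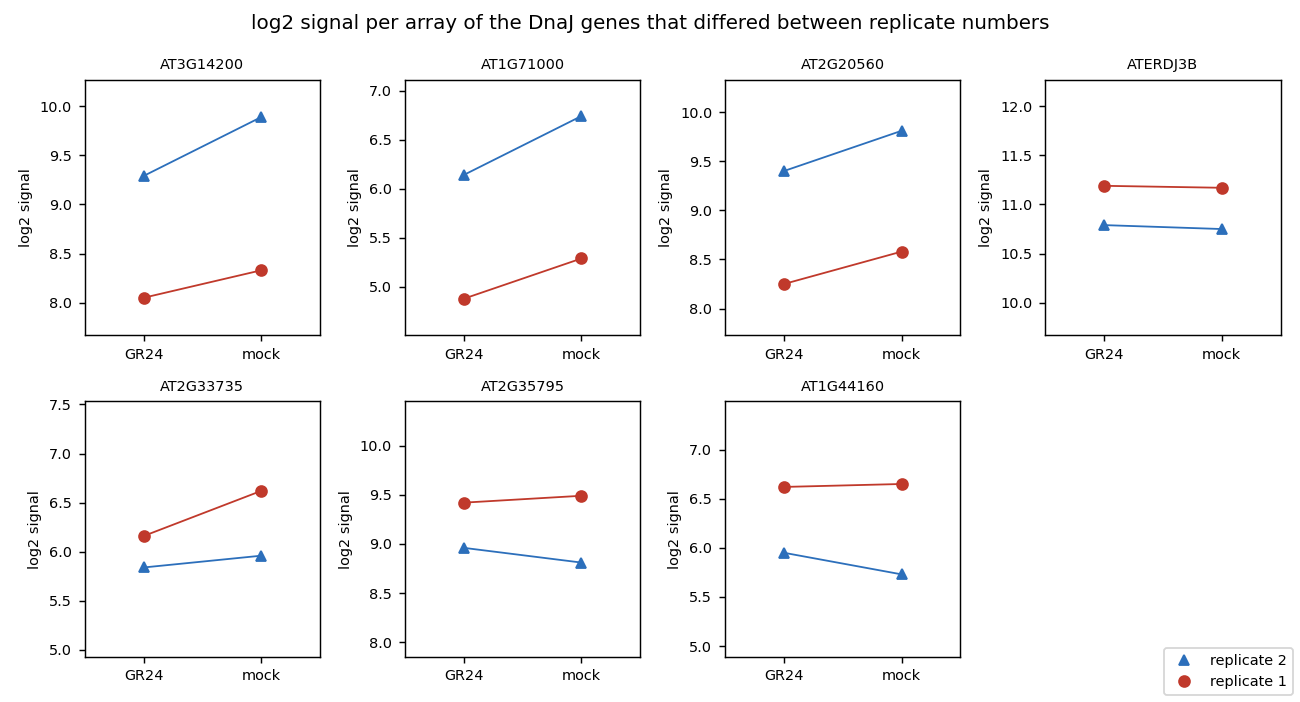
Log2 signal (y axis, the same span of 2.6 in every panel) on the 4 arrays for the 7 DnaJ genes that passed the test between replicate numbers, with GR24 left and mock right in each panel. Triangles joined by a line are replicate 2, circles replicate 1. In the panels of AT3G14200, AT1G71000 and AT2G20560 both lines are higher in mock and the replicate 2 line lies more than 1 above the replicate 1 line, while in the other 4 panels it lies below.

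The other 30 members did not pass between replicate numbers, with differences from -0.30 to 0.34 and adjusted p from 0.0638 to 0.99 in limma. Nearest to the threshold was AT4G28480, a type B gene and, with ATERDJ3B, one of the 2 with the highest signal. It had 10.51 and 10.69 in replicate 2 (GR24 and mock), against 10.28 and 10.25 in replicate 1, a difference of 0.34 ± 0.11 (limma, adjusted p = 0.0638, and 0.0371 with the default prior). The type B genes thus did not move together. AT2G20560 was higher, AT1G44160 was lower, and the other 7 lay between -0.14 and 0.34 without a call. The 2 members with the lowest signal were also type B genes. AT1G59725 had 3.90 and 4.12 in replicate 2 and 4.11 and 4.08 in replicate 1, and AT5G25530 had 4.77 and 4.68 in replicate 2 and 4.54 and 4.74 in replicate 1. Neither differed beyond its error (-0.08 ± 0.11 and 0.09 ± 0.11). A signal depends on the probes as well as on the transcript, so high and low here order probe sets and not transcript amounts. Over all 37 members, both replicate 2 arrays lay above both replicate 1 arrays for 9 and below them for 12, against shares of 26.3% and 32.3% over all probe sets. The root gene EXPA7 was higher in replicate 2 too (5.38 and 5.58, against 4.79 and 4.84 in replicate 1, adjusted p = 0.00534 in limma). RCA and LHCB4.1 differed by 0.11 and 0.30 with no call, and the part of tissue make-up in the DnaJ differences was not tested.

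The proteins that work with J proteins were looked up in lists of Hsp70, Hsp90, Hsp100 and small heat shock protein genes. Further lists held Hsp70 and Hsp90 co-chaperones with the nucleotide exchange factors, and heat shock transcription factors. All these lists were chosen with earlier results of these data known. Of 87 listed genes 21 were measured, 4 of 18 Hsp70 genes, 9 of 17 small heat shock protein genes and 8 of 21 co-chaperone genes. The Hsp90, Hsp100 and heat shock factor genes are not analysed here. Between GR24 and mock 0 of the 21 passed in limma, and 5 had an unadjusted p under 0.05, a level that 7.47% of all probe sets reached. Without the replicate block none of the 21 did. Between replicate numbers 7 were higher and 4 lower in replicate 2. The median difference of the 21 was 0.16, against -0.02 over all probe sets, and the share called was 52.4%, against 16.7% of all probe sets. With lists chosen in that way, the share is a description only.

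Among the exchange factors the 3 Fes1 genes went different ways. Fes1A, listed here with the exchange factors of Hsp70, had 11.37 and 11.73 in replicate 2 (GR24 and mock), against 10.08 and 10.44 in replicate 1. The difference was 1.29 ± 0.10 (limma, adjusted p = 0.000563). Fes1C had 7.31 and 6.99 in replicate 2, against 8.24 and 8.08 in replicate 1 (-1.01 ± 0.10, adjusted p = 0.00106 in limma). Fes1B had 8.15 and 8.21 in replicate 2, against 9.00 and 8.80 in replicate 1 (-0.72 ± 0.11, adjusted p = 0.00494 in limma). Of the co-chaperones that serve Hsp90, the FKBP-type isomerase gene AT5G48570 was higher in replicate 2 by 1.28 ± 0.11 and Hop3, which links Hsp70 to Hsp90, by 0.90 ± 0.11, while Hop1 and Hop2 did not pass (0.16 and 0.36).

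The small heat shock proteins, which hold unfolded proteins without ATP, were split. AT1G54050 was higher in replicate 2 by 1.06 ± 0.11, AT5G51440 by 1.04 ± 0.11 and AT2G19310 by 0.58 ± 0.12. ATHSP22.0 was lower by 0.44 and AT5G37670 by 0.39, both at signals near 5. The call of AT5G37670 was lost without treatment in the model (adjusted p = 0.0392 in limma with it and 0.0584 without it). The other 4 of the 9 did not pass, with AT2G29500 the highest of them at 0.32. Of the Hsp70 genes, the cytosolic AT3G09440 was higher by 0.45 ± 0.10 (13.36 and 13.46 in replicate 2, against 12.94 and 12.97 in replicate 1), and the other 3 did not pass.

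**Figure D4:**
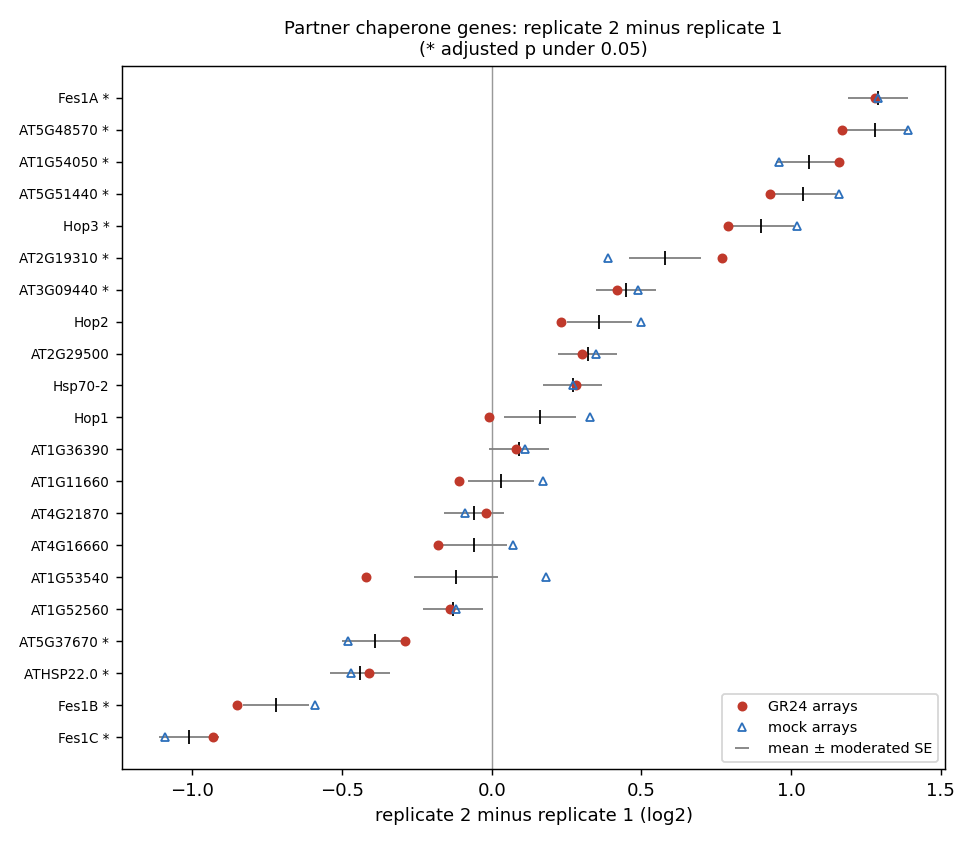
Replicate 2 minus replicate 1 on the log2 scale (x axis) for the 21 measured chaperone partner genes (y axis, ordered by mean). Circles are GR24 arrays, open triangles mock arrays, ticks the mean of both and grey lines 1 moderated SE to each side, and an asterisk marks an adjusted p under 0.05. Fes1A, AT5G48570, AT1G54050 and AT5G51440 lie near or above 1 in both treatments, and Fes1C is at the other end near -1.

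No partner gene was called between GR24 and mock, and the values of those that were higher in replicate 2 were as follows. Fes1A had 10.08 and 11.37 with GR24, against 10.44 and 11.73 in mock, a difference of -0.36 ± 0.10 (limma, adjusted p = 0.306). AT5G48570 had 9.26 and 10.43 with GR24, against 9.51 and 10.90 in mock (-0.36 ± 0.11, adjusted p = 0.378 in limma). The small heat shock protein genes AT1G54050 and AT5G51440 differed by -0.30 (95% interval -0.54 to -0.06) and -0.25 (95% interval -0.49 to 0.00). For Hop3 the difference was -0.15 and for the Hsp70 gene AT3G09440 -0.06. In AT2G19310 the replicates had opposite signs, -0.30 in replicate 1 and 0.09 in replicate 2. Fes1C, which was lower in replicate 2, had 8.24 and 7.31 with GR24, against 8.08 and 6.99 in mock, a difference of 0.24 ± 0.10 (limma, adjusted p = 0.659). The other partner genes called lower in replicate 2 were nearer to no difference between GR24 and mock. Fes1B differed by 0.07, ATHSP22.0 by -0.02 and AT5G37670 by -0.10. The 2 contrasts share all 4 arrays, so the values are set side by side and no more.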

How the data were processed

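Single-channel oligonucleotide arrays measured RNA from whole max3 seedlings, 2 with GR24 and 2 mock. The authors deposited log2 values from RMA, which is named in the submitters' processing notes; its version is not given in the sources used here. RMA subtracts background, equalises distributions and combines probes, so differences between dim probe sets are less certain. Of 22810 probe sets, 64 were controls, and the other 22746 all entered the tests. The platform table gave 1 gene for 13513 of them, several for 503 and did not list 8730, and genes were matched to loci through gene identifiers.

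Members, lists, design and prior were chosen with earlier results of these data known. The partner lists came from general knowledge, and the roles were assigned after the values had been seen. Classes from protein sequence had been planned and were not used here, as no sequence table was at hand. Values in every array were given for members called in either contrast, the 5 with the largest GR24 difference of like sign in both pairs, the 2 highest and 2 lowest signals, and AT1G71000 and AT3G14200. The rule for partner genes named up to 10 called ones per contrast, and AT5G37670, the remaining called one, was named after its value was seen.

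The test was limma 3.58.1 in R 4.3.3, two-sided, with treatment and replicate number in 1 model (1 residual degree of freedom) and Benjamini-Hochberg adjustment over all probe sets at 0.05. A maximum-likelihood fit gave the prior variance (7.63 prior degrees of freedom, prior SD 0.107, against 18.3 degrees of freedom by default), and the code was checked for recovery of known changes on simulated data drawn with that prior, which does not test whether the prior is right. The series text describes 2 independent analyses with their own seedlings, and the labels number the replicates, which was read as pairing. Deviations of same-numbered arrays from their group means correlated at 0.712 across probe sets. Nothing says that arrays of 1 number came from separate cultures beyond the treatment, so the p-values reflect only how these arrays vary, and their number limits the precision. Alternatives were no block, limma's default prior, trend and robust moderation, repeated quantile normalization, median centring, no dim probe sets, an offset of 16, a 1.5-fold criterion, averaged probe sets and each array left out.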

Additional observations from a re-analysis of the deposited data

How the results depend on the processing

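Between GR24 and mock the count of DnaJ members past the threshold was 0, where 69 of 22746 probe sets passed. It was also 0 with both scalings, without dim probe sets and with an offset of 16, where 24 to 55 probe sets passed. Without the replicate block it was 0 (limma, with 0 members at an unadjusted p under 0.05), but there 0 of all probe sets passed. A 1.5-fold criterion, which can only remove calls, gave 0. So did averaged probe sets, where each member has 1 probe set and its values stay as they were. The count was 1, AT1G71000, with limma's default prior (adjusted p = 0.0258) and with trend and robust moderation (adjusted p = 0.0468). In these 2 settings 281 and 261 of 22746 probe sets passed. Over the settings with all arrays its adjusted p ran from 0.0258 with the default prior to 1 without the replicate block. With a single array left out, a group is down to a lone array, so a count from those fits cannot test the result. The difference of AT1G71000 was -0.59 with either replicate 1 array left out and -0.41 with either replicate 2 array left out. The cause of the changes between settings was not tested. Partner genes gave 0 in every setting with all arrays (limma, with 5 at an unadjusted p under 0.05 with the block and 0 without it). Between replicate numbers 7 members passed, where 3806 of 22746 probe sets did. Without the replicate block or treatment term 6 passed (2522 probe sets). The other settings gave 7 or 8 (3717 to 4962 probe sets), except for 4 with a 1.5-fold criterion (1269). Partner genes gave 11, with 10 to 13 in those settings and 7 with the 1.5-fold criterion, which removes smaller differences by construction. With 1 array left out and no treatment term, the lone array is assumed to vary like the others, so counts from those fits cannot test the result. These fits have fewer arrays and mix treatment into the contrast. The difference of AT3G14200 was 1.56 with either GR24 array left out and 1.25 with either mock array left out. For Fes1A the values were 1.29 and 1.28, and for AT2G19310 0.39 and 0.77. The 1.5-fold criterion ended the calls of AT2G33735, AT2G35795, ATERDJ3B, AT2G19310, AT3G09440, ATHSP22.0 and AT5G37670 between replicate numbers, and AT4G28480 passed with the default prior, with trend and robust moderation and with an offset of 16. For 21 named genes, AT5G37670 not among them, no setting turned the sign of a difference that had passed. Dim probe sets have no stated background here.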
